A study of Drosophila melanogaster with 3 samples.

Results

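Chromatin binding of Chrac-16 was examined at 10 Drosophila melanogaster genes of neural and glial fate, listed by name for their roles and not by any measured value: elav, fne, Rbp9, repo, gcm, pros, ase, sc, ac and l(1)sc. They are 10 of 13945 protein-coding genes on the 6 chromosome arms. Chrac-16 is a histone-fold protein that works with the ATPase Iswi in CHRAC, a complex that slides nucleosomes. The 3 biological replicates were whole embryos of both sexes, aged 0 to 24 h, of the transgenic line Chrac-16-GFP, in which Chrac-16 carries GFP at its C-terminus, and binding was mapped by ChIP-seq with an anti-GFP antibody. All 3 replicates form 1 group with no second genotype, treatment or stage, and the sequence that drives the transgene is not given in the sources used here. A whole embryo mixes neurons, glia and many other cells, so binding in few cells and weak binding in many cannot be told apart. For each gene the summits in the annotated gene body plus 5 kb on each side were taken from the authors' dm6 peak lists: the optimal list of 4941 peaks, the pooled relaxed list of 24641, and the relaxed lists of 30000, 24619 and 29140 peaks in replicates 1, 2 and 3. The relaxed lists hold weak peaks and background by construction, and peak lists carry no read counts, so read depth is unknown.

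Basic helix-loop-helix transcription factors, encoded in the achaete-scute complex by ac, sc, l(1)sc and ase, act early in the fly nervous system. The proneural genes ac, sc and l(1)sc give ectodermal cells the capacity to become neural precursors, while ase is expressed in neuroblasts. The homeodomain protein Prospero passes from the dividing neuroblast to its daughter, where it ends self-renewal. Gcm directs precursors towards the glial fate and Repo then sets up glial differentiation, while the RNA-binding proteins Elav, Fne and Rbp9 act in neurons on splicing and 3' end choice.

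In the optimal list Chrac-16 summits lay near 7 of these 10 genes, and within 500 bp of the start of 1 of them, elav. An optimal summit fell in the window of elav, fne, Rbp9, repo, gcm, pros and ase, and in none of those of sc, ac and l(1)sc. Over all protein-coding genes 51.8% had an optimal summit in a window built the same way, so 7 of 10 is not far from the background, and longer genes have larger windows. Of the 6 genes with a body under 5 kb, 3 had a summit (repo, gcm and ase), where 47.5% of all genes of that length did. Both genes of 5 to 20 kb (elav and Rbp9) had a summit, against 63.5% of all such genes, and so did both of 20 kb or more (fne and pros), against 67.5%. An optimal summit within 500 bp of an annotated start was present at 1 of 10, elav, where 22.5% of all protein-coding genes had one. For 4 of 10 genes (elav, fne, pros and ase) the gene's own start was the nearest to a summit in the window, against 21.8% of all genes. Ties count here, and elav is included only through a start that lncRNA:enrr shares. This share was not split by gene length.

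The 7 windows held 16 optimal summits. Of these, 9 lay in introns, 5 within 500 bp of a transcript start, 1 in a 3' UTR and 1 between genes, and 0 in coding exons. Of the 5 promoter summits 4 belonged to a gene other than the one listed. The nearest start was that of the listed gene at 7 summits and of another gene at 9. The 7 include the promoter and intronic summits of elav, whose nearest start is shared with lncRNA:enrr. By signal, the value the authors gave each peak, 7 of the 16 were above the median of the optimal list (170.4) and 9 below it. The 16 summits ranged from 102.4 to 901.8, with a median of 161.2.

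The replicates gave the elav window the highest rank in each of the 3 lists. The strongest peak there stood in the top 0.330% ± 0.0487 of a replicate's list (mean and SD, n = 3). Rbp9 followed at 1.58% ± 0.631 and pros at 2.16% ± 0.353. The strongest peaks of repo, gcm, fne and ase were close together, at 9.25% ± 2.70, 9.72% ± 5.29, 12.8% ± 1.81 and 13.7% ± 1.15. The weakest were those of l(1)sc at 43.5% ± 18.4 and ac at 55.8% ± 29.3, and sc had no peak at all in replicate 1. Neighbours in this order were taken as apart where all 3 replicates gave the same order and the mean log2 ratio of signal exceeded its SD. By this rule elav stood above Rbp9 (log2 ratio 0.95 ± 0.19, SD, n = 3), Rbp9 above pros (0.24 ± 0.21), pros above repo (1.20 ± 0.17) and ase above l(1)sc (1.17 ± 0.28). Repo and gcm, gcm and fne, fne and ase, and l(1)sc and ac did not differ beyond their spread. The strongest peak of a window was not always the same site: it was a different one in each replicate at l(1)sc, in replicates 2 and 3 at sc, in replicate 3 at ac and in replicate 2 at fne. The means and SDs of these 4 genes therefore describe the window and not 1 peak. At Rbp9, pros, repo and gcm the strongest peak lay at the promoter of another gene, named below. The order therefore ranks windows and not sites of the listed genes. Windows also ran from 10917 bp (ac) to 89148 bp (pros), and a longer window can hold more peaks. An exact sign-flip test on 3 replicates cannot go below p = 0.25, two-sided, so no test is given.

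**Figure D1:**
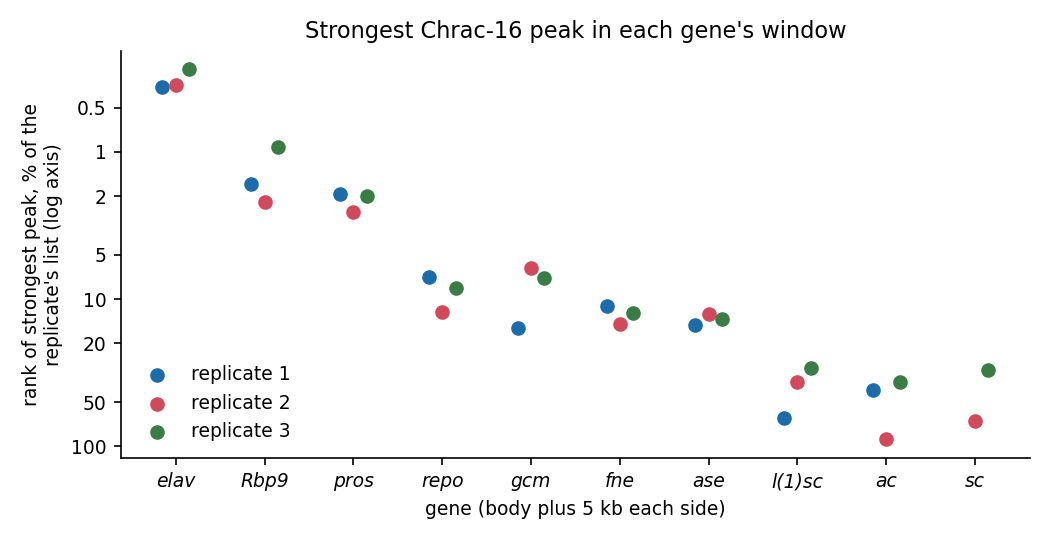
Rank of the strongest Chrac-16 peak in the window of each gene, as a percentage of the replicate's peak list (log axis, strongest at the top), with 1 point per replicate. The elav points sit at 0.363%, 0.353% and 0.275% of the lists in replicates 1, 2 and 3, above every other gene, and sc has points in replicates 2 and 3 only.

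To set replicates side by side, each replicate signal was divided by the median signal of that replicate's 4941 strongest peaks, as many as the optimal list holds. Of the 16 optimal summits 12 (75%) overlapped such a strongest peak in all 3 replicates, as did 74.6% of the whole optimal list. The exceptions were at fne (3 summits) and pros (1 summit). The SD of the summit position over the 3 replicates ranged from 1.53 to 72.8 bp, with a median of 17.0 bp. In each replicate the overlapping peak with the nearest summit was taken, which keeps these shifts small. The SD was not computed for the whole optimal list. All 16 sites had a peak in the relaxed list of every replicate. Of the 42 weaker summits that the pooled list adds in these windows, 15 (35.7%) overlapped a peak in all 3 relaxed lists, beside 39.9% of all such pooled summits. Neighbouring summits can share a replicate peak by this rule. The weaker summit 3329 bp upstream of fne was credited with the same replicate peaks as the optimal summit 3529 bp upstream.

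**Figure D2:**
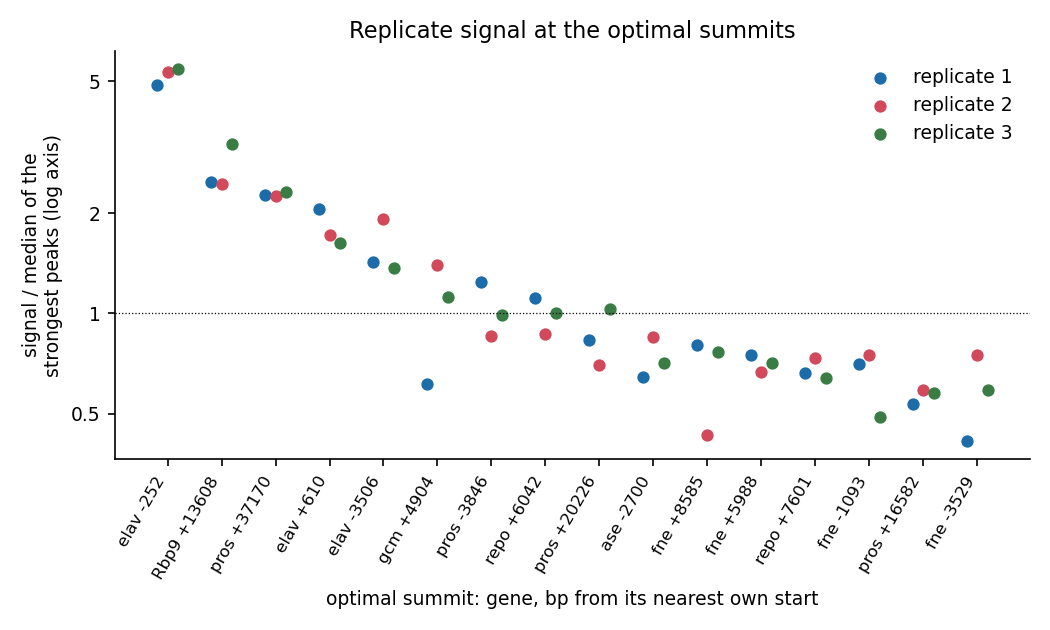
Signal of the replicate peak at each of the 16 optimal summits, divided by the median of that replicate's strongest peaks (log axis; the dotted line is 1), with 1 point per replicate. Summits are labelled by gene and by distance in bp from the nearest start of that gene, and run from the highest to the lowest signal in the optimal list. The elav summit at -252 bp is at 4.85, 5.34 and 5.43, above all other summits in every replicate.

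Among the neuronal RNA-binding genes, elav (FBgn0260400; X, 509235 to 523226, minus strand) carried 3 optimal summits around its upstream start. The strongest lay 252 bp upstream of the start (X, 523303 to 523673). Its signal was 901.8 in the optimal list, rank 82 of 4941. In replicates 1, 2 and 3 the signal was 276.8, 309.2 and 315.9, at ranks 109, 87 and 80. All 3 replicates thus placed it close to the top, with a relative signal of 5.21 ± 0.308 (SD, n = 3). Among the 3137 protein-coding genes with an optimal promoter summit, 78 had a stronger one. The start is shared with the long non-coding RNA lncRNA:enrr, annotated from the same base, so the summit cannot be given to elav alone. The summit also lies inside the annotated body of the gene arg.

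Another elav summit lay 610 bp inside the gene, in an intron (X, 522570 to 522713), with signals of 117.6, 99.9 and 94.8 in replicates 1, 2 and 3. The remaining summit lay 3506 bp upstream (X, 526524 to 526939), in an intron of arg and 3117 bp from the start of CG4293, with signals of 81.5, 111.3 and 79.6. Both were in the strongest set of every replicate, at 1.81 ± 0.227 and 1.57 ± 0.303 times the median (SD, n = 3). In each replicate they were below the upstream promoter summit. Between the upstream summits lay a weaker one, 1312 bp upstream, with a pooled signal of 91.9 just outside the optimal list, whose lowest signal is 99.6. Its ranks of 5879, 5411 and 6184 in the replicates fell outside the strongest 4941 in all 3. No pooled summit lay within 500 bp of the internal start of elav.

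The DNA under the 3 elav summits is shown because they are the ones around the start of the only gene with a promoter summit. Each sequence is the summit base with 100 bp on each side, read on the coding strand of elav from the RefSeq Release 6 (dm6) genome, and capitals mark matches to the motifs searched, which are given further on. The windows are X:523378-523578 (252 bp upstream), X:522516-522716 (610 bp inside) and X:526632-526832 (3506 bp upstream), all on the minus strand.
elav, 252 bp upstream: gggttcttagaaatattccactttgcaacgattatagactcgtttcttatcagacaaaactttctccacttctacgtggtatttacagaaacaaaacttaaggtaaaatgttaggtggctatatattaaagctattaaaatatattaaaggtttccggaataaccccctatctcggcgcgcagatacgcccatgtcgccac
elav, 610 bp inside: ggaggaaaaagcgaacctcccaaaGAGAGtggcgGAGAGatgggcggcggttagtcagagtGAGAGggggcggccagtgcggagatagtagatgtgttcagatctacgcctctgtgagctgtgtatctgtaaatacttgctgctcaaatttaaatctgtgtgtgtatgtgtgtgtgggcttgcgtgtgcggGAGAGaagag
elav, 3506 bp upstream: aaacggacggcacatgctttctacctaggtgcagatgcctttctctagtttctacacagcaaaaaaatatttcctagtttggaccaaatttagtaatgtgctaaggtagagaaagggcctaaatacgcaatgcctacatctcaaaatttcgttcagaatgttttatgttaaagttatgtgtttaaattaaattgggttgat
The strongest window held none of the motifs. The intronic window held 4 matches to GAGAG, the core of sites of the GAGA factor encoded by Trl, which 20.8% of all optimal windows held at least once. Its GC content of 52.2% was above that of 98.7% of all optimal summits, whose median was 34.3%. The upstream windows had 37.8% and 35.3% GC.

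The second RNA-binding gene, fne (FBgn0086675; X, 12917477 to 12950417, plus strand), carried 4 optimal summits, all of low signal and none at a start. Summits in introns lay 5988 bp and 8585 bp downstream of its nearest own start (signals 126.7 and 129.3), and another lay 1093 bp upstream of its most downstream start (signal 110.8). The remaining summit lay 3529 bp upstream of the gene, between genes and 896 bp from the start of lncRNA:CR45626 (signal 102.4). At 5988 bp the replicate signals were 42.6, 38.6 and 41.3, and this was the fne summit with a strongest peak in all 3 replicates. At 8585 bp they were 45.7, 25.0 and 44.5, so replicate 2 was the low one. At the summit 1093 bp upstream they were 40.2, 43.4 and 28.4, with replicate 3 low. At the summit 3529 bp upstream they were 23.6, 43.5 and 34.2, and only replicate 2 ranked it among its strongest. A weaker pooled summit (87.4) lay 471 bp upstream of a different internal start, with ranks 8329, 6124 and 5923, outside the strongest set in all 3 replicates.

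Sequences of 3 fne summits, cut in the same way, are shown because each held the E-box CAGCTG, a hexamer bound by basic helix-loop-helix proteins. They are read on the plus strand at X:12913848-12914048, X:12923372-12923572 and X:12940079-12940279, with matches in capitals.
fne, 3529 bp upstream: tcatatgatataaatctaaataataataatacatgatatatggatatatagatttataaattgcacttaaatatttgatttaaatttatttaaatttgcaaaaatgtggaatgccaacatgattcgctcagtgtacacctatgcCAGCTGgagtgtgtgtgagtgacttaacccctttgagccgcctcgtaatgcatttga
fne, 5988 bp inside: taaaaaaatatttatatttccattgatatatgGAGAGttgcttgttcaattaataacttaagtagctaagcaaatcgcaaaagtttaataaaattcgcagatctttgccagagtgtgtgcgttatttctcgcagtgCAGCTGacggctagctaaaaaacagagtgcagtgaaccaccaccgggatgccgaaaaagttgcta
fne, 1093 bp upstream of an internal start: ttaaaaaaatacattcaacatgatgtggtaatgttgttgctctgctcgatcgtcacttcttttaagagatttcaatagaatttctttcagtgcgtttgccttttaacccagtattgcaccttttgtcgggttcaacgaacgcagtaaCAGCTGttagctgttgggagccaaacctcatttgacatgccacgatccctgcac
The match was centred 47, 39 and 50 bp downstream of the summit. Of the 16 windows 3 held CAGCTG, all at fne, while 8.46% of all optimal windows did and 13.4% of windows of that length centred on protein-coding starts. The remaining fne window held no motif. The 3 windows belong to 1 gene and were picked out after their matches were seen.

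Rbp9 (FBgn0010263; 2L, 2954762 to 2968434, plus strand) had a strong summit in its window, but at the promoter of the neighbouring gene. This summit, 136 bp upstream of gammaTub23C, which encodes gamma-tubulin, had a signal of 479.0 (2L, 2972677 to 2972887) and 141.7, 141.9 and 188.1 in replicates 1, 2 and 3. All 3 ranked it high, at 492, 536 and 268. At the starts of Rbp9 itself there were only weak pooled summits, 140 and 125 bp upstream of 2 of its 3 starts, with signals of 39.3 and 33.5. The stronger had no peak in replicate 1, and the weaker had a peak in replicate 3 alone.

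Both glial determinants followed the pattern of Rbp9. In the window of repo (FBgn0011701; 3R, 18236192 to 18239602, plus strand), the homeodomain gene of glia, the optimal summits lay beyond its 3' end, 75 bp upstream of CG7156 and in an intron of 14-3-3epsilon. At the CG7156 promoter (3R, 18242026 to 18242441) the signal was 169.0, with 63.4, 50.4 and 58.5 in the replicates. At the intronic site it was 126.4, with 37.7, 42.5 and 37.2. Both were in the strongest set of all 3. The start of repo had a pooled summit 50 bp upstream with a signal of 36.6 and ranks of 21424, 22394 and 26253, deep in each list. In the window of gcm (FBgn0014179; 2L, 9579498 to 9581745, minus strand) the optimal summit lay 72 bp upstream of Mtpalpha, which encodes a mitochondrial enzyme of fatty acid oxidation (2L, 9576633 to 9577048; signal 187.2). Its replicate signals were 35.1, 80.8 and 65.4, with replicate 1 low, at rank 4737 there and 1510 and 2107 in replicates 2 and 3. No pooled summit lay within 500 bp of the gcm start.

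The windows at CG7156 and Mtpalpha held the match GGTCACAC, the core of Motif 1 of housekeeping promoters. It was found in 2 of the 16 windows, against 2.33% of all optimal windows and 5.68% of windows at protein-coding starts. The Mtpalpha window also held the second E-box, CAGGTG, found in 5.30% of optimal windows. The Gcm motif ATGCGGGT, searched because gcm is among the genes, occurred in 0 of the 16 windows and in 0.162% of all optimal windows. The DRE motif TATCGATA (3.89% of optimal windows) was likewise in none of the 16. So were the Zelda motif CAGGTAG (0.911%) and the Su(H) motif GTGGGAA (1.94%). The BEAF-32 core CGATA was in 3 of the 16, all in the pros window, against 30.2% of all optimal windows. Every motif was searched on both strands, and CGATA is contained in TATCGATA.

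The gene pros (FBgn0004595; 3R, 11328480 to 11407627, plus strand), the longest of the 10, held 3 optimal summits inside its body and 1 beyond it. The strongest in its window lay between the starts of mgr and Irbp, 83 bp upstream of mgr (3R, 11409837 to 11410083; signal 399.2). In replicates 1, 2 and 3 the summit was nearer to Irbp, 70, 74 and 59 bp upstream of it, so it cannot be given to mgr or Irbp alone. Its signals were 129.9, 130.8 and 134.7 in replicates 1, 2 and 3. Its spread between replicates was the smallest of the 16 summits, at 2.28 ± 0.0288 times the median (SD, n = 3). Inside pros, an intronic summit 3846 bp upstream of its most downstream start (3R, 11368734 to 11369149) had a signal of 179.9, with 70.8, 49.5 and 57.5 in the replicates. A summit in a 3' UTR of pros (3R, 11392806 to 11393221) had 153.4, with 47.4, 40.4 and 60.1. Both were in the strongest set of all replicates. The last, in an intron shared with the annotated bodies of the kinase genes KP78a and KP78b, had 104.1, and ranks of 5711, 4961 and 5128 placed it in no replicate's strongest set.

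The most downstream start of pros had a pooled summit 5 bp upstream with a signal of 91.0, just under the optimal list. Its replicate signals were 15.6, 29.9 and 43.95, at ranks 15005, 5815 and 3685. Replicate 3 alone ranked it among its 4941 strongest peaks. The window in the 3' UTR held 10 overlapping matches to GAGAG in 1 run, at positions -89 to -71 bp from the summit. GAGAG was found in 6 of the 16 windows in all: 1 at elav, 1 at fne, 1 in the repo window and 3 in the pros window.

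The intronic pros summit is shown with those at ase and gammaTub23C, as the strongest optimal summit inside pros, the only one in the achaete-scute complex and the strongest site at a neighbour. They are read on the plus strand at 3R:11368842-11369042, X:457947-458147 and 2L:2972655-2972855.
pros, 3846 bp upstream of an internal start: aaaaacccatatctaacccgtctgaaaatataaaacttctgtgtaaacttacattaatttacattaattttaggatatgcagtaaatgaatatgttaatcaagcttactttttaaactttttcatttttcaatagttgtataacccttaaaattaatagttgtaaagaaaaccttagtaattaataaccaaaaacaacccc
ase, 2700 bp upstream: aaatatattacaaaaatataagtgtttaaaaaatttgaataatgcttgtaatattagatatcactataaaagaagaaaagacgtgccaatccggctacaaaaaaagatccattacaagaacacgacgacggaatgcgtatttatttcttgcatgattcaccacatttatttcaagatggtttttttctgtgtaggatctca
gammaTub23C, in the Rbp9 window: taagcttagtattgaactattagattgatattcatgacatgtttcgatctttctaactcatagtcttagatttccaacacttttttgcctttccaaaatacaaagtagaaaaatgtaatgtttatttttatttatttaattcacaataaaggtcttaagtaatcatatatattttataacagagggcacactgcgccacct
None of the 3 held a motif, and all had low GC content, at 24.4% (pros), 29.4% (ase) and 27.9% (gammaTub23C), all below the median of 34.3%.

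**Figure D3:**
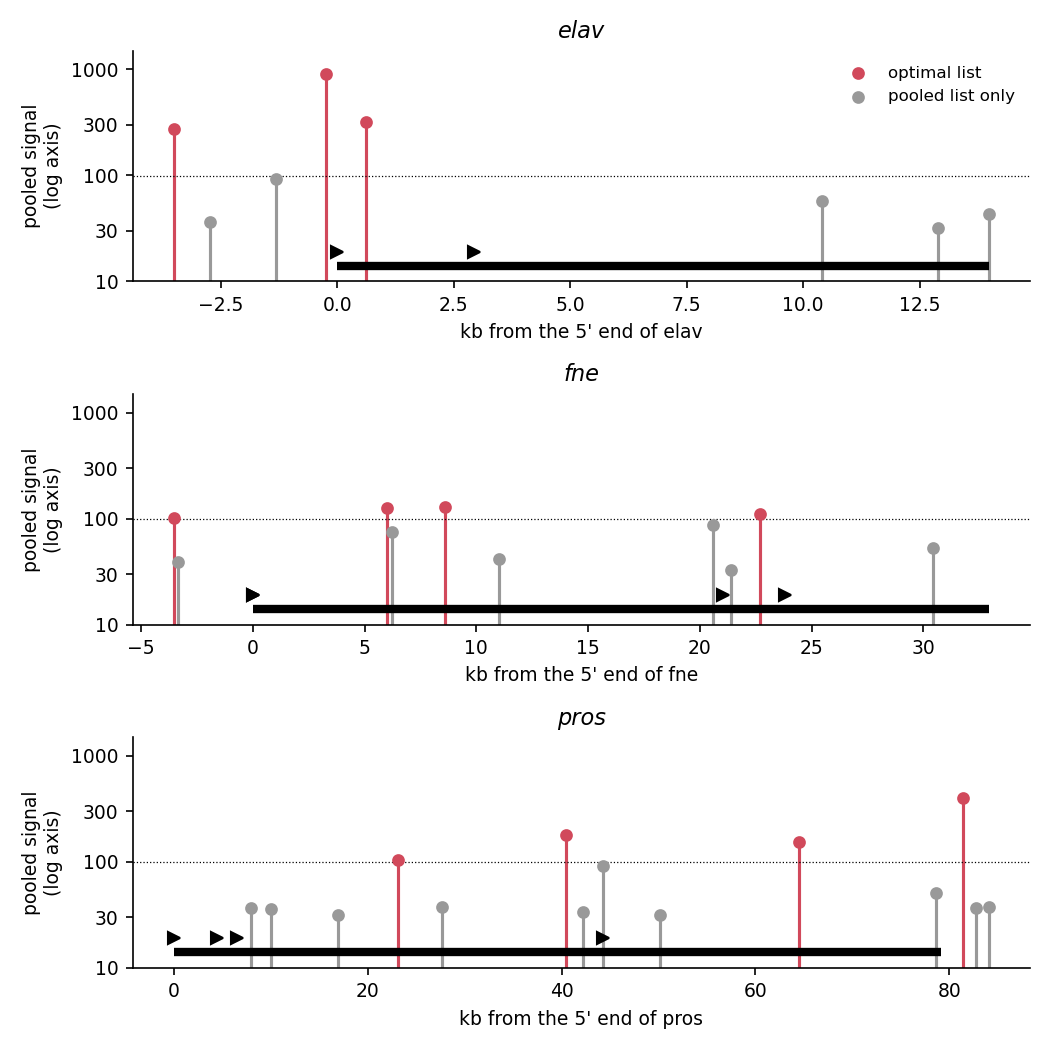
Pooled signal (log axis) of every pooled summit in the windows of elav, fne and pros, by distance in kb from the 5' end of the gene in its direction of transcription. Red summits are in the optimal list, grey ones only in the pooled list, the dotted line is the lowest optimal signal (99.6), black bars are gene bodies and arrowheads annotated starts. At elav the highest summit (901.8) is next to the upstream start, while at fne and pros the red summits lie away from the starts and the highest near pros (399.2) is beyond its 3' end.

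The achaete-scute complex on the X held few optimal summits. From the start of ac to the end of ase, 93.1 kb, there was 1 optimal summit, or 1.07 per 100 kb, against 3.92 per 100 kb over the X. Pooled summits numbered 13, or 13.96 per 100 kb, against 18.1 over the X. The windows of the 10 genes together held 6.37 optimal and 23.1 pooled summits per 100 kb, against 3.70 and 18.4 over the 6 arms. The arms also hold sequence away from genes, and density in windows around all genes was not measured. This difference is therefore not a result about the 10 genes. The complex was chosen as a region after the summits were seen. Its density rests on a count of 1, and other stretches of the X of that length were not counted. The optimal summit lay 2700 bp upstream of ase (FBgn0000137; X, 460747 to 463176), the proneural-class gene expressed in neuroblasts, in an intron of the annotated gene CG32816, which spans the complex. Its signal was 130.9, with 36.8, 49.4 and 41.2 in replicates 1, 2 and 3, and ranks of 4472, 3106 and 3984. All 3 replicates had it among their strongest peaks. No pooled summit lay within 500 bp of the ase start.

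By the strongest peak in the window, the 3 proneural genes of the complex came below the other listed genes, or had no peak, in every replicate. That order counts summits at neighbouring genes. With the summits at Mtpalpha, CG7156, 14-3-3epsilon and gammaTub23C set aside, the highest pooled signals were 63.4 (repo) and 66.8 (Rbp9). At gcm the only other pooled summit (55.9) lay 138 bp upstream of lncRNA:CR43621. No pooled summit in the gcm window was nearest to the gcm start. The values at repo and Rbp9 were not far above the highest at l(1)sc (53.2) and ac (46.5). The ac summit was itself nearest to the start of lncRNA:CR44751. At elav, fne, pros and ase an optimal summit remained whose nearest start was the gene's own, shared at elav. For sc (FBgn0004170; X, 396060 to 397497) the pooled list had no summit in the window, replicate 2 had 1 (signal 15.6, rank 16572) and replicate 3 had 1 at another position (21.9, rank 8776). The nearest optimal summit was 57622 bp from its start. For ac (FBgn0000022; X, 370031 to 370947) there were 3 pooled summits of 34.8 to 46.5, and the highest, 5396 bp downstream of the start, had 17.5, 13.5 and 13.3 in the replicates. For l(1)sc (FBgn0002561; X, 409721 to 410817) there were 3 of 34.0 to 53.2. The highest of these, 4788 bp downstream, had a peak in replicates 2 and 3 (17.7 and 22.3) and none in replicate 1. The nearest optimal summits to the starts of ac and l(1)sc were 31593 and 48326 bp away. None of the 3 proneural genes had a pooled summit within 500 bp of its start, and neither did gcm or ase.

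**Figure D4:**
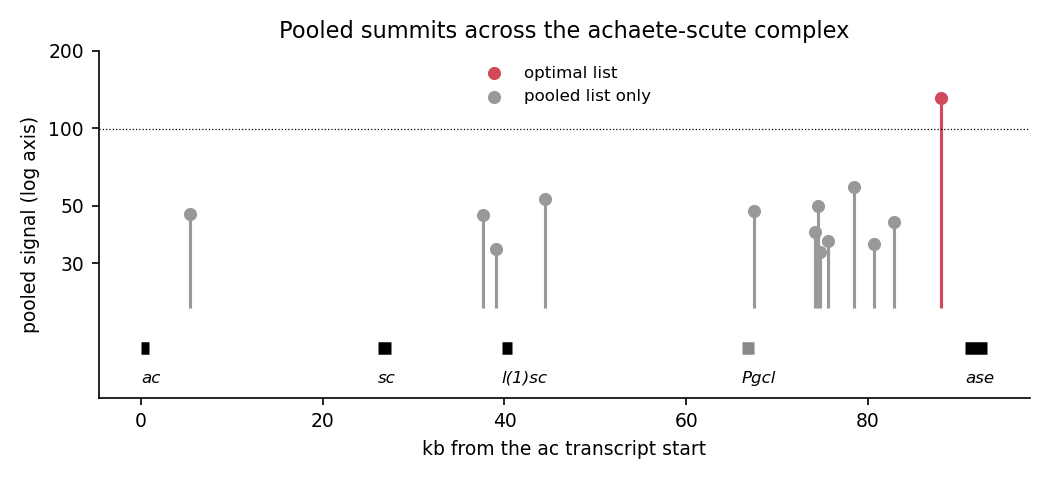
Pooled signal (log axis) of the 13 pooled summits across the achaete-scute complex, by distance in kb from the start of ac. The summit in red is in the optimal list, those in grey are not, the dotted line is the lowest optimal signal (99.6) and boxes are genes (Pgcl in grey). The single red summit, at 130.9, lies upstream of ase, and no pooled summit lies within 5 kb of sc.

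In the pooled relaxed list 9 of 10 genes had a summit in the window, sc being the exception, against 87.4% of all protein-coding genes. Within 500 bp of a start it was 5 of 10 (elav, fne, Rbp9, repo and pros), against 49.7%. Both counts are near their background.

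Other genes of neural and glial development were counted in 4 lists, 79 genes in all. An optimal summit within 500 bp of a start was present at 11 of them (13.9%), beside 22.5% of all protein-coding genes, and an optimal summit in the window at 42 (53.2%), beside 51.8%. In the list of genes linked to proneural function or sense organs, 5 of 20 had a promoter summit. The highest were not proneural genes but the Notch target genes E(spl)m3-HLH (signal 499.96), E(spl)m7-HLH (364.0) and E(spl)mdelta-HLH (307.0). The E(spl)m3-HLH summit was nearer to the start of lncRNA:CR43644. The list also held da (187.9), which encodes the common partner of the proneural proteins, with 62.2, 63.7 and 65.2 in replicates 1, 2 and 3. Among neuroblast genes it was 3 of 21, numb (582.6), brat (187.0, nearer to the start of Polr1D) and grh (122.0, nearer to that of asRNA:CR45270). The summit of numb, which encodes a determinant segregated at division, lay at -139 bp from its start, with 210.5, 167.8 and 206.9 in the replicates.

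Among glial genes 3 of 16 had a promoter summit. It was highest at moody (807.7), which encodes a receptor of the glial blood-brain barrier, at -163 bp from its start and with 265.9, 312.1 and 241.6 in the replicates. The others were htl (278.4), encoding an FGF receptor, and Gli (195.2), encoding a septate junction protein. None of 22 genes of neuronal differentiation, among them nSyb, Syt1, brp and para, had an optimal promoter summit, while 12 of the 22 had a pooled one, beside 49.7% of all protein-coding genes. An optimal summit lay in the window of 12 of 20 proneural and sense organ genes, 7 of 21 neuroblast genes, 11 of 22 neuronal differentiation genes and 12 of 16 glial genes, beside 51.8% of all protein-coding genes. These counts were not split by gene length. Over all protein-coding genes the share ran from 47.5% (body under 5 kb) to 67.5% (20 kb or more).

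**Figure D5:**
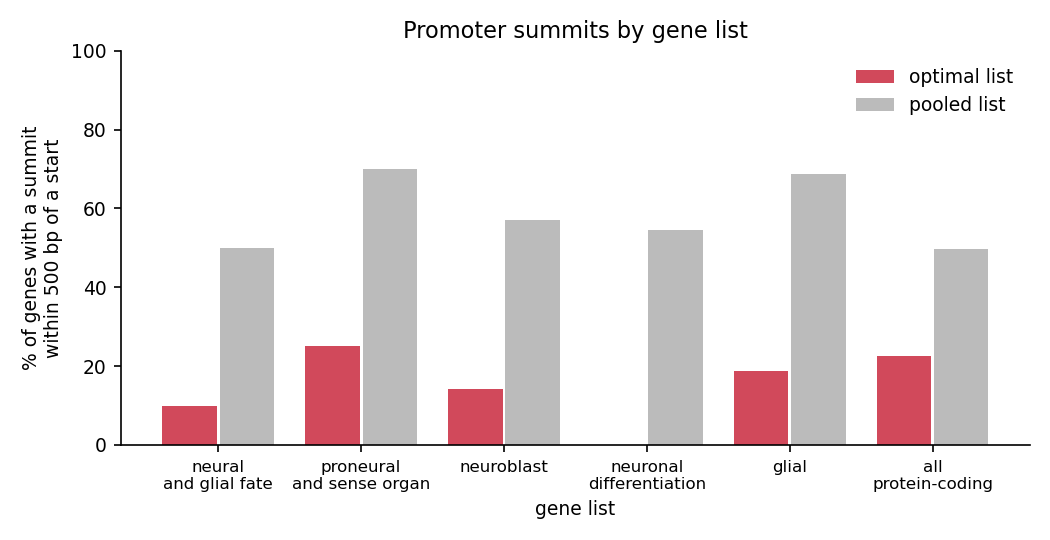
Percentage of genes with a summit within 500 bp of an annotated start, in the optimal list (red) and the pooled list (grey), for the 10 neural and glial fate genes, the 4 other lists and all protein-coding genes. In the optimal list the bars stand for 1 of 10 genes, 0 of 22 neuronal differentiation genes and 22.5% for all protein-coding genes.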

How the data were processed

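ChIP-seq peak lists of 3 biological replicates were analysed. Per the listings deposited beside them, the authors' relaxed lists hold peaks and background used as input for the irreproducible discovery rate, and the optimal list holds the peaks that passed it. A possible control named in the labels is not analysed here. No source used here names the aligner or peak caller. Chromatin was sheared to 200 to 800 bp, per the labels. The signal of a peak is the authors' deposited value; its scale differs between lists, so it was compared within a list, and between lists by rank or after division by a list median. All 4941 optimal peaks are in the pooled list with the same signal. The list of replicate 1 holds exactly 30000 peaks, which may be a limit on its length.

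Summits (peak start plus the deposited offset) were set against the Ensembl release 115 annotation and the Release 6 genome, both dm6, leaving out transposable elements. All summits lie inside the arms. The 5 dm3 lists were not used. A site was found in a replicate when its peak overlapped, by 1 bp or more, a peak among that replicate's 4941 strongest. Motifs were searched within 100 bp of summits. Of 82 symbols in the other neural lists, 3 did not match the annotation and were left out. Named were all 10 genes, every optimal summit in their windows with the gene of the nearest start, and the 3 genes of highest promoter signal in each other list. Other names (da, genes without a promoter summit, and lncRNA genes nearest to weaker pooled summits) were added after their values were seen. Genes, lists, motifs and tests were chosen with earlier results of these data known. Counts of genes were described beside the share of all protein-coding genes, with no test, since there is 1 group and genes are not replicates. The SD over 3 replicates is the only error given. Counting was tested on planted summits. Python 3.11.15, pandas 2.3.3 and numpy 2.4.6 were used.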

Additional observations from a re-analysis of the deposited data

How the results depend on the processing

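Most counts depended on the window and the list. With the gene body alone or 2 kb on each side, 3 of 10 genes (elav, fne and pros) had an optimal summit, with 7 and 8 summits in all, since those at Rbp9, repo, gcm and ase lie further out. With the 50% of optimal peaks of higher signal, 4 genes (elav, Rbp9, gcm and pros) and 7 summits were left. The pooled list gave 58 summits in the windows, 5 genes with a promoter summit and 49 genes of the other lists with one, and with the body alone it gave 5 genes with a summit. A promoter limit of 250 bp left 0 of the 10 genes, as the elav summit is at 252 bp, and 7 of the other genes. In the strongest peaks of replicate 3 alone 2 genes (elav and pros) had a promoter summit. In the order by strongest peak 6 of 10 genes kept their place in the pooled list, and 4 to 10 when 1 replicate was left out. Without replicate 1 gcm came before repo, ase before fne and sc before ac. In every setting run elav, Rbp9 and pros came first, but these settings changed only the list or left out 1 replicate. The order was not computed for another window. With the body alone or 2 kb on each side Rbp9 had no optimal summit. The strongest summit of the pros window (399.2) also lies beyond the gene's 3' end. The number of summits found in all replicates was 12 to 13 with 1 replicate left out. Each other setting gave a count within 1.5 times the reported one. No paired analysis was possible because there is a single group. Depth is unknown, so a missing peak is not evidence of no binding.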
